A study of Homo sapiens with 24 samples.

Results

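Transcripts of the proteasome and its regulators were followed in 22Rv1 cells treated with DMSO (vehicle), KB02 or KB05. The 22Rv1 line is established and was derived from a human prostate carcinoma. Only code names are used here for the 2 compounds. Both were given at 200 µM for 1 h, followed by 2 h in fresh medium, so that RNA was taken 3 h after treatment began. All groups are the same cell line, the labels name no engineered allele, and the only labelled difference is the agent. Each group held 3 libraries, which the labels give as biological triplicates. Members were the protein-coding genes whose symbol begins with PSMA to PSMG and a number, together with POMP. The rule found 51 members among 60232 genes in the table, of which 19836 are protein-coding. It used gene names only, and no measured value.

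The proteasome is the large protease that degrades ubiquitin-tagged proteins in the cytosol and nucleus. Its 20S core is a barrel of alpha and beta rings, with the protease sites inside the beta rings, and the 19S regulatory particle binds ubiquitin chains, unfolds the substrate with a ring of ATPases and feeds it into the core. Interferon-induced catalytic subunits can replace the constitutive ones to form the immunoproteasome, which favours peptides for antigen presentation, and separate activators (PA28, PA200) can cap the core in place of the 19S particle. When proteasome capacity falls short, the transcription factor NRF1 (gene NFE2L1) is known to raise transcription of the subunit genes together.

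The members were sorted by role. The 20S core has 8 alpha genes and 7 constitutive beta genes, of which PSMB5, PSMB6 and PSMB7 carry the active sites. The 19S particle is covered by 6 ATPases (PSMC1 to PSMC6), 3 further base subunits and 8 lid subunits. The rest are 4 immunoproteasome or thymoproteasome subunits, 5 chaperones of core assembly, 3 chaperones of 19S base assembly, and 5 genes for activators and the inhibitor PI31. PSMC3IP and PSME3IP1 match the rule by name only, since they encode binding partners of a subunit and not proteasome parts. Of the 51 members, 49 passed the filter on low counts. The 2 that did not are the testis-specific alpha subunit PSMA8, with 0 or 1 counts in every library, and the thymus-specific PSMB11, with 0, 0 and 1 counts in DMSO, 6, 3 and 5 with KB02 and 0, 0 and 6 with KB05.

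Total counts per library ran from 15507130 to 21900671. All 10 markers of a luminal prostate line were detected, with a summed level of 2698 to 3064 CPM in DMSO, 2461 to 2620 with KB02 and 3174 to 3233 with KB05 (CPM are read counts scaled to equal library size with TMM factors). With KB02, 6 of the 10 were called lower, among them EPCAM (2.72-fold) and TMPRSS2 (2.53-fold), and 2 higher. With KB05, 2 were lower and 5 higher. The 7 markers of fibroblasts and endothelium, of which 2 passed the filter, summed to 16.7 to 20.55 CPM in DMSO, 24.3 to 31.1 with KB02 and 23.7 to 26.0 with KB05, so that both compounds lay above every DMSO library, and COL1A1 was called higher with both. The part of these markers in the members' changes was not tested. Of the 3 germ cell markers, DDX4 and DAZL were at or near 0. Members took 0.573% ± 0.0157 (SD, n = 3) of all counts in DMSO, 0.631% ± 0.011 with KB02 and 0.606% ± 0.0171 with KB05. The 3 KB02 libraries, at 0.619% to 0.640%, and the 3 KB05 libraries, at 0.590% to 0.624%, all lay above the 3 DMSO libraries, at 0.555% to 0.582%. That share moves with whatever else is expressed, so changes of single genes are given below on the TMM scale.

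In vehicle-treated cells the core stood highest. Levels of different genes are compared here as mean DMSO CPM per kilobase of coding transcript. On that scale the 14 core genes that passed the filter had a median of 164, the 17 genes of the 19S particle 74.3, the 5 core chaperones 60.0, the activator group 27.6 and the 3 immunoproteasome subunits 9.14. PSMB4 (502 ± 27.7, SD, n = 3) and PSMA7 (502 ± 24.5) were highest. PSMB2, at 17.0 ± 1.25, was the lowest core gene. The PA28 genes PSME1 (135 ± 11.9) and PSME2 (169 ± 14.8) were at the level of the core, whereas PSME4, which encodes PA200, was at 4.80 ± 0.134. With the union of all exons as length, the group medians were 111 for the core, 64.0 for the 19S particle, 19.7 for the activator group, 17.6 for the core chaperones and 7.81 for the immunoproteasome. The core chaperones thus moved below the activator group.

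**Figure D1:**
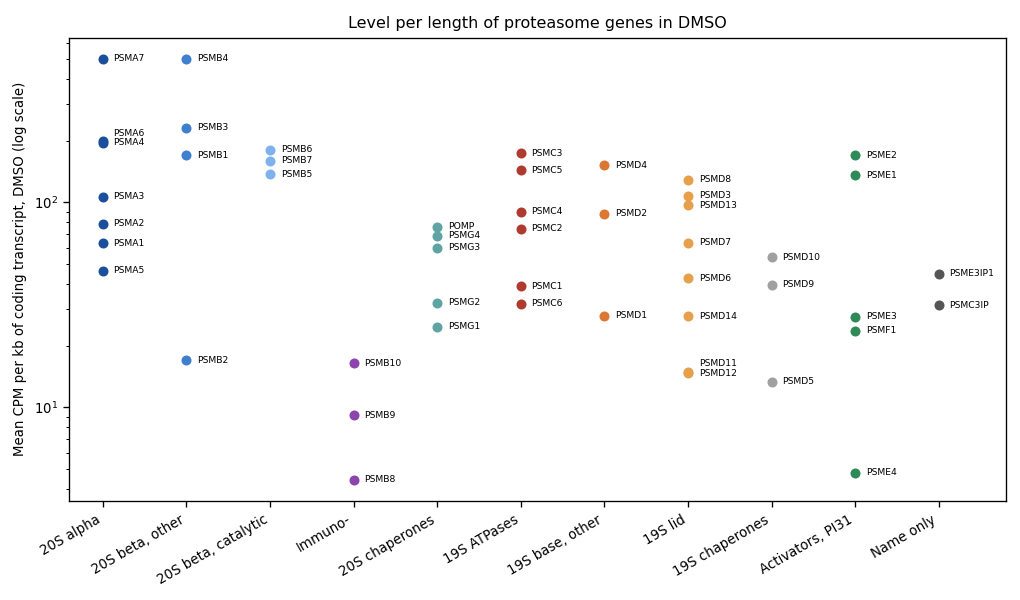
Mean level in the 3 DMSO libraries of each member that passed the filter, as CPM per kilobase of coding transcript on a log axis, with 1 column of points per functional group. The core groups reach 502 (PSMB4, PSMA7), and the immunoproteasome subunits lie at or below 16.4.

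None of the 49 members tested doubled or halved with either compound. Among the 49 members tested, 24 differed between KB02 and DMSO (49.0%, against 46.1% of all 18379 genes tested), with 14 higher (22.8% of all genes) and 10 lower (23.3% of all genes). Calls throughout are at an adjusted p below 0.05, from edgeR's quasi-likelihood test, adjusted over all genes tested by the Benjamini-Hochberg method. For KB05 against DMSO, 15 members differed (30.6%, against 39.8% of all genes), 10 higher (18.7% of all genes) and 5 lower (21.1% of all genes). In the direct comparison of KB05 with KB02, 28 members differed (57.1%, against 40% of all genes), 16 higher (21.8% of all genes) and 12 lower (18.2% of all genes). The members' shares are thus near the background for KB02, below it for KB05 and above it between the compounds, with no test of those differences. The members' changes were small: the median size of the log2 change was 0.161 for KB02, 0.107 for KB05 and 0.195 between the compounds, against 0.369, 0.313 and 0.309 over all genes tested. Members are also more abundant than most genes (median log2 CPM 6.56, against 4.24 for protein-coding genes tested). The 3 comparisons share libraries, so their counts are not independent. Counts also moved with single libraries. The 10 falls with KB02 became 6 without KB02 replicate 1. The 10 rises with KB05 became 6, 5 or 4 without DMSO replicate 1, DMSO replicate 2 or KB05 replicate 3, and its 5 falls became 8 without DMSO replicate 1 or 3 without KB05 replicate 1. The 16 higher members between the compounds became 7 to 10 without DMSO replicate 2, KB02 replicate 1 or 2, or KB05 replicate 2 or 3.

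With KB02, the 19S particle and the core differed in their counts. Of the 17 genes of the 19S particle, 6 rose and 0 fell (median log2 change 0.06), whereas of the 14 core genes tested 3 rose and 4 fell (median -0.10). These are 35.3% higher and 0.0% lower for the 19S particle and 21.4% higher and 28.6% lower for the core, against 22.8% higher and 23.3% lower over all genes tested, so the core's shares are near the background. The median over all genes was 0.00. Without DMSO replicate 1 the 19S median became 0.02, and it was 0.09 to 0.13 without DMSO replicate 2 or 3 or KB02 replicate 1 or 2. The core median became -0.05 without DMSO replicate 2, -0.04 without DMSO replicate 3 or KB02 replicate 1, and stayed negative with each of the 9 libraries left out. Under scaling by library size alone the core median became positive, at 0.04, when the median over all genes moved to 0.13, so relative to all genes it stayed at -0.10. At an unadjusted p below 0.05, 0 genes of the 19S particle were lower. No gene of it was called lower under any of the 16 alternative settings, in which 5 to 12 of its genes were called higher. The 4 falls in the core became 2 without KB02 replicate 1 or without KB02 replicate 3, and 1 under library-size scaling. No test compares the groups with each other.

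The largest rise with KB02 was that of PSMB2, a non-catalytic beta subunit of the core. Its level was 54.0, 59.4 and 62.6 CPM in the DMSO libraries, 80.7, 82.1 and 76.9 CPM with KB02, and 72.5, 70.0 and 66.9 CPM with KB05. Neither compound's libraries overlapped DMSO, and KB05 lay between DMSO and KB02. The log2 change was 0.45 ± 0.073 (SE) for KB02, a 1.36-fold rise (adjusted p = 6.04e-06), and 0.25 ± 0.074 for KB05 (adjusted p = 0.00659). KB05 against KB02 gave -0.20 ± 0.072 (adjusted p = 0.0312), a call that was lost without KB05 replicate 3 (-0.16, adjusted p = 0.135) or KB05 replicate 2 (adjusted p = 0.0799) and without the filter on low counts (adjusted p = 0.0661).

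Lid subunits of the 19S particle made up the next rises with KB02. PSMD7, which forms the lid's deubiquitinase pair with PSMD14, was at 60.0, 57.9 and 59.7 CPM in DMSO, 82.0, 83.4 and 71.8 CPM with KB02 and 54.0, 58.8 and 57.5 CPM with KB05. PSMD11, a scaffold subunit of the lid, was at 49.5, 49.6 and 48.1 CPM in DMSO, 63.5, 64.8 and 63.6 CPM with KB02 and 51.1, 48.9 and 46.7 CPM with KB05. In both, the KB02 libraries stood above all 6 others, and KB05 overlapped DMSO. PSMD7 rose 1.34-fold with KB02 (log2 change 0.42 ± 0.074, adjusted p = 1.92e-05) and PSMD11 1.303-fold (0.38 ± 0.072, adjusted p = 4.74e-05). Both were lower with KB05 than with KB02, by log2 changes of -0.48 ± 0.074 (adjusted p = 3.76e-06) and -0.39 ± 0.072 (adjusted p = 5.57e-05). The other 19S genes that rose with KB02 were the lid subunit PSMD13 (0.31), the ATPases PSMC4 (0.31) and PSMC2 (0.19), and the scaffold PSMD2 (0.28). Of these, PSMC2 lost its call in 2 of the 16 alternative settings. Exons of PSMD7 overlap those of AC009120.2 over 42.4% of their length, and that gene received 12 to 62 counts per library. PSMD14 itself, the lid's deubiquitinase, was not called in any comparison (KB02 against DMSO, 95% interval -0.31 to 0.03).

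PSMA6, an alpha subunit, fell furthest among core genes with KB02. Its level was 169.9, 176 and 189 CPM in DMSO, 118, 127 and 113 CPM with KB02, and 159, 160.2 and 161 CPM with KB05. All KB02 libraries were below all others. It fell by 0.58 on the log2 scale (SE 0.069, adjusted p = 2.5e-08), 1.49-fold, and was 0.42 ± 0.069 higher with KB05 than with KB02 (adjusted p = 8.18e-06). PSMA2, PSMA3 and PSMB3 also fell, by 0.28, 0.21 and 0.29 on the log2 scale. The calls of PSMA2 and PSMA3 were lost in 4 and 7 of the 16 alternative settings, and PSMB3 lost its call under scaling by library size alone (-0.16, adjusted p = 0.0617). Exons of PSMA6 overlap those of AL121594.1 over 63.9% of their length, and exons of PSMA2 overlap other genes over 54.1%. AL121594.1 itself received 61 to 165 counts per library, and the sources used here do not say whether reads were assigned by strand. MRPL32, which overlaps PSMA2, received 1845, 1566 and 1310 counts in DMSO and 2484, 2450 and 1890 with KB02. PSMA2 received 1837, 1581 and 1267 in DMSO and 1634, 1661 and 1185 with KB02. The part of read assignment in the fall of PSMA2 was not tested.

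The catalytic subunits of the core did not pass the test against DMSO with either compound. That is 0.0% called with each, against 46.1% of all genes tested with KB02 and 39.8% with KB05. For KB02 the log2 changes were -0.12 for PSMB5 (95% interval -0.26 to 0.02), -0.10 for PSMB6 (-0.24 to 0.05) and -0.11 for PSMB7 (-0.25 to 0.04). For KB05 they were 0.14 (0.00 to 0.29), 0.02 (-0.12 to 0.17) and 0.14 (-0.01 to 0.29). At an unadjusted p below 0.05 the count was 0 for KB02 and 1 for KB05 (PSMB5), and DESeq2 called 0 in both. Between the compounds, PSMB5 was 0.26 ± 0.069 higher with KB05 (adjusted p = 0.0027) and PSMB7 0.25 ± 0.071 higher (adjusted p = 0.00575). These are 66.7% of the catalytic genes, against 40% of all genes tested. Both calls were lost under scaling by library size alone (adjusted p = 0.0931 and 0.121) and without KB02 replicate 1 (adjusted p = 0.0695 and 0.0879), and that of PSMB7 also without KB02 replicate 2 (adjusted p = 0.0537).

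**Figure D2:**
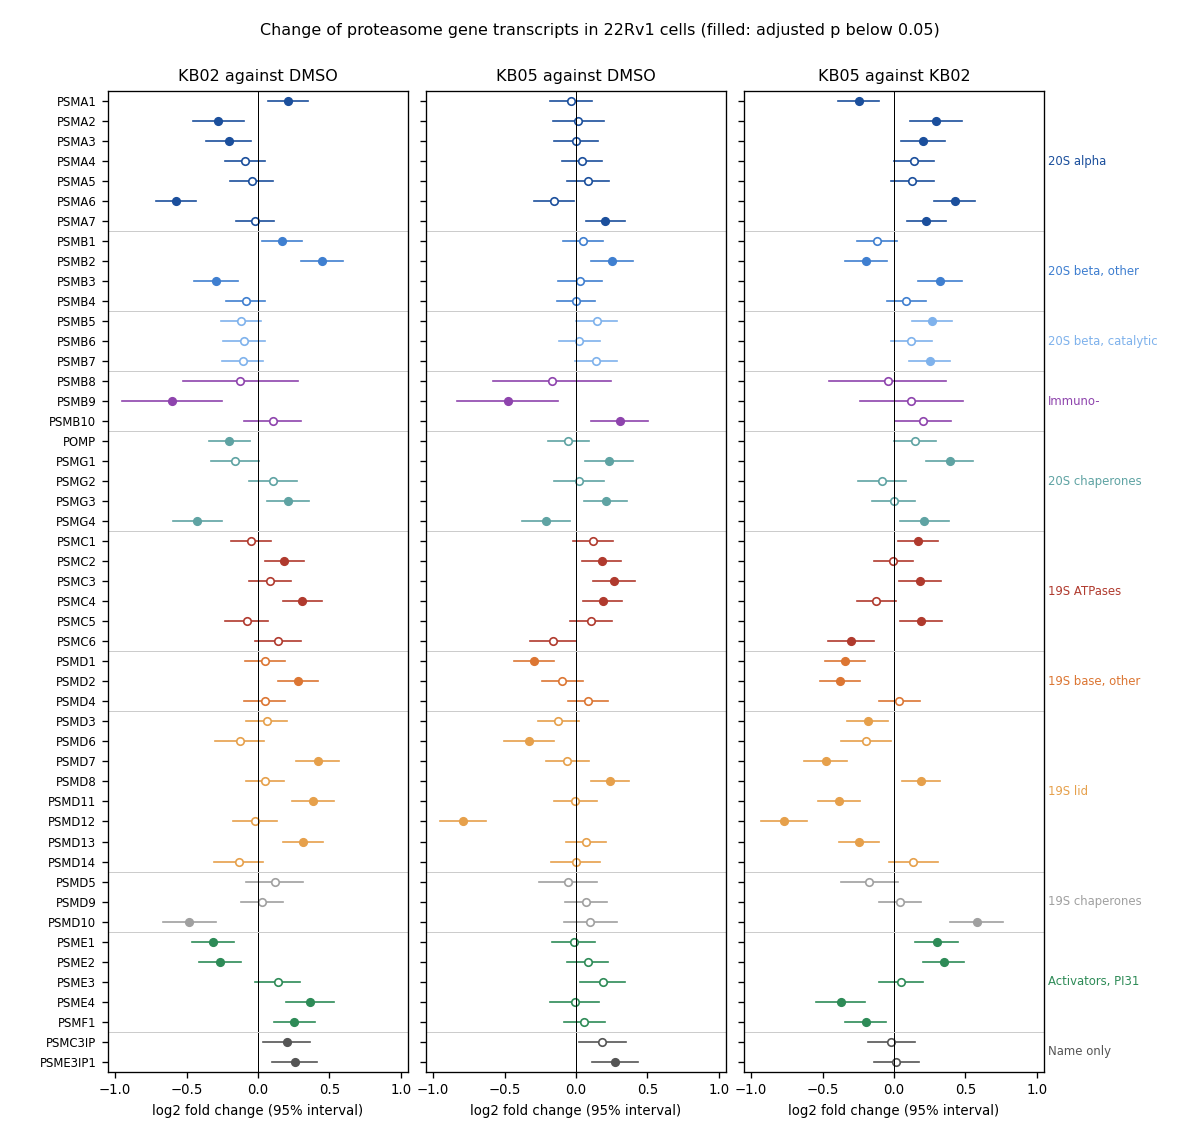
Log2 fold change of each of the 49 members tested, with its 95% interval, for KB02 against DMSO, KB05 against DMSO and KB05 against KB02. Filled points passed an adjusted p of 0.05, rows are grouped and coloured by role, and every point lies within 0.80 of 0 on the log2 scale.

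The largest change of any member belonged to PSMD12, a scaffold subunit of the 19S lid, with KB05. Its level was 49.3, 48.2 and 53.0 CPM in DMSO, 50.6, 51.1 and 46.4 CPM with KB02, and 29.5, 27.9 and 29.4 CPM with KB05. The 3 KB05 libraries stood apart from the other 6, and KB02 overlapped DMSO. PSMD12 fell by 0.79 on the log2 scale with KB05 (SE 0.079, adjusted p = 2.56e-09), 1.73-fold. With KB02 the log2 change was -0.02 (95% interval -0.18 to 0.13), and the direct comparison gave -0.77 ± 0.079 (adjusted p = 2.46e-09). Over the 16 alternative settings the KB05 change stayed between -0.82 and -0.75. PSMD12 lies at chr17:67337916-67366627 on the minus strand (GENCODE 29, GRCh38).

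Falls with KB05 were otherwise few. PSMD6, another lid subunit, was at 63.9, 58.0 and 55.4 CPM in DMSO, 53.3, 56.4 and 52.5 CPM with KB02 and 48.8, 52.5 and 40.4 CPM with KB05, a log2 change of -0.33 ± 0.086 for KB05 (adjusted p = 0.00275). PSMD1, a scaffold of the base, was at 85.5, 92.9 and 89.4 CPM in DMSO, 91.4, 94.5 and 91.4 CPM with KB02 and 76.3, 73.1 and 69.3 CPM with KB05, a log2 change of -0.29 ± 0.069 (adjusted p = 0.00108). In both genes the KB05 libraries lay below all DMSO libraries. The 3 genes PSMD12, PSMD6 and PSMD1 were the 19S genes called lower with KB05, against 4 called higher: the ATPases PSMC2, PSMC3 and PSMC4 and the lid subunit PSMD8. These are 17.6% lower and 23.5% higher, near the 21.1% and 18.7% of all genes tested. The calls of PSMC2 and PSMC4 were lost in 7 and 5 of the 16 alternative settings. The 4 rises became 2 without DMSO replicate 1 or 2 or KB05 replicate 2 or 3, and the 3 falls became 5 without DMSO replicate 1. PSMC3 was at 225, 262 and 275 CPM in DMSO, 265, 271 and 275 CPM with KB02 and 298, 301 and 319.7 CPM with KB05. Its log2 change with KB05 was 0.27 ± 0.072 (adjusted p = 0.00334), and the KB05 libraries were above all others. In the core, PSMA7 (0.20) and PSMB2 rose with KB05 and 0 genes fell in edgeR's test. These are 14.3% higher and 0.0% lower, against 18.7% and 21.1% of all genes tested. PSMA6 was lower at an unadjusted p below 0.05 and was called by DESeq2. PSMA7 lost its call without DMSO replicate 2 (adjusted p = 0.0518) or KB05 replicate 3 (adjusted p = 0.0914).

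Set directly against KB02, KB05 gave lower levels of 8 genes of the 19S particle and higher levels of 4, with a median log2 difference of -0.18. Of its genes 47.1% were lower and 23.5% higher, against 18.2% and 21.8% of all genes tested. In the core, 7 genes were higher (50%) and 2 lower (14.3%), with a median of 0.17, and the median over all genes tested was 0.06. The 4 higher calls in the 19S particle became 0 under RLE, upper-quartile and library-size scaling, while 9, 9 and 10 of its genes were then lower. They also became 0 without DMSO replicate 2, KB02 replicate 1, KB02 replicate 2, KB05 replicate 2 or KB05 replicate 3, each left out in turn. The core counts became 2 higher and 3 lower under library-size scaling, and 3 or 4 higher without KB02 replicate 1 or 2. The medians of the 2 groups kept their signs in all 16 alternative settings, from -0.30 to -0.15 for the 19S particle and from 0.06 to 0.21 for the core. PSMD2, a base scaffold that binds ubiquitin receptors, was at 210.8, 240.5 and 243 CPM in DMSO, 292, 279 and 274 CPM with KB02 and 217, 219.6 and 213 CPM with KB05. The log2 difference of KB05 from KB02 was -0.38 ± 0.069 (adjusted p = 4.11e-05), and the KB05 libraries overlapped DMSO.

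**Figure D3:**
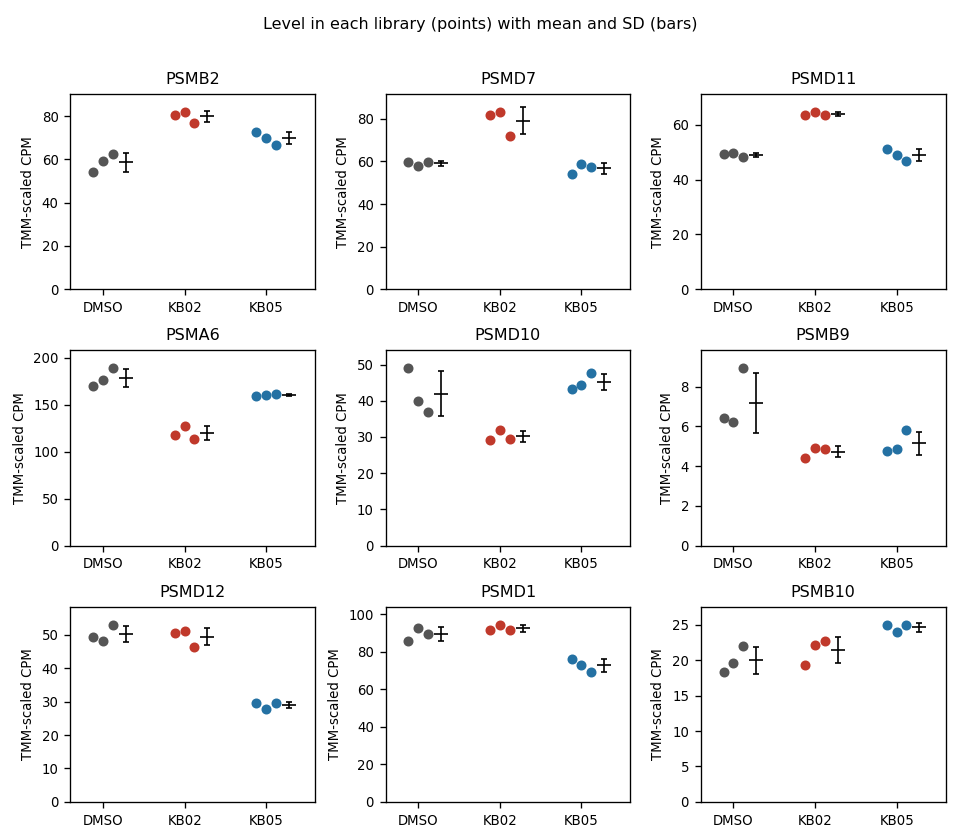
TMM-scaled CPM in each of the 9 libraries for 9 members (points), with the mean and SD of 3 libraries beside them, on axes that start at 0. PSMB2, PSMD7 and PSMD11 were highest with KB02, PSMA6 and PSMD10 lowest with KB02, and PSMD12 and PSMD1 lowest with KB05.

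Chaperones of proteasome assembly moved in both directions. PSMD10 (gankyrin), a chaperone of the 19S base, was at 49.0, 40.0 and 37.0 CPM in DMSO, 29.1, 31.9 and 29.4 CPM with KB02 and 43.3, 44.4 and 47.5 CPM with KB05. Its KB02 libraries lay below all others, a log2 change of -0.48 ± 0.091 (adjusted p = 5.29e-05), and KB05 overlapped DMSO. The difference between the compounds, 0.58 ± 0.091 (adjusted p = 4.58e-06), was the largest rise of any member in that comparison. PSMG4, which with PSMG3 forms a chaperone of the alpha ring, was at 50.4, 57.1 and 51.9 CPM in DMSO, 39.1, 39.0 and 40.7 CPM with KB02 and 40.3, 48.6 and 48.9 CPM with KB05. It fell by 0.42 on the log2 scale with KB02 (SE 0.082, adjusted p = 7.73e-05) and by 0.21 with KB05 (adjusted p = 0.0405). The KB05 call was lost in 6 of 16 alternative settings. Its partner PSMG3 rose with each compound, by 0.21 in both comparisons with DMSO, though the calls were lost in 2 and 4 of the 16 alternative settings.

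PSMG1, part of the other alpha-ring chaperone, was at 35.7, 37.7 and 40.1 CPM in DMSO, 35.5, 33.1 and 32.9 CPM with KB02 and 41.7, 47.6 and 43.9 CPM with KB05. KB05 exceeded KB02 by 0.39 ± 0.081 on the log2 scale (adjusted p = 0.000229), with no overlap of libraries. Its rise over DMSO (0.23, adjusted p = 0.0241) was lost without DMSO replicate 1 or 2 or KB05 replicate 2 or 3, with adjusted p from 0.0529 to 0.145. Over the 5 core chaperones, 1 rose and 2 fell with KB02, and 2 rose and 1 fell with KB05. Of all genes tested, 22.8% were higher and 23.3% lower with KB02, and 18.7% higher and 21.1% lower with KB05. No test compares the core chaperones with that background. Of the 3 base chaperones, PSMD10 alone was called, with KB02 and between the compounds. That is 33.3% in each, against 46.1% and 40% of all genes tested.

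The immunoproteasome subunits were low in these cells. PSMB9, the interferon-induced counterpart of PSMB6, was at 6.40, 6.25 and 8.94 CPM in DMSO, 4.40, 4.91 and 4.88 CPM with KB02 and 4.74, 4.88 and 5.81 CPM with KB05. Both compounds' libraries lay below all DMSO libraries, and DMSO replicate 3 was the highest. The log2 change was -0.60 ± 0.171 with KB02 (adjusted p = 0.0042) and -0.48 ± 0.172 with KB05 (adjusted p = 0.0264). Without DMSO replicate 3 these became -0.43 (adjusted p = 0.0648) and -0.30 (adjusted p = 0.225), and neither was called. The KB05 call was also lost without KB05 replicate 1 (adjusted p = 0.0964) or KB05 replicate 2 (adjusted p = 0.0833).

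PSMB8, the counterpart of PSMB5, was at 4.29, 3.87 and 6.75 CPM in DMSO, 4.78, 4.32 and 4.49 CPM with KB02 and 3.80, 5.14 and 4.31 CPM with KB05. All groups overlapped, and at 73 to 111 counts per library the 95% interval of the KB02 change ran from -0.53 to 0.28. PSMB10, the counterpart of PSMB7, was at 18.3, 19.6 and 22.0 CPM in DMSO, 19.4, 22.2 and 22.7 CPM with KB02 and 25.0, 23.9 and 24.9 CPM with KB05. Its KB05 libraries were above all DMSO and KB02 libraries, a log2 change of 0.31 ± 0.098 over DMSO (adjusted p = 0.0129). That call was lost without DMSO replicate 1 (0.24, adjusted p = 0.067). Exons of PSMB10 overlap those of AC040162.1 over 30.7% of their length. Of these 3 subunits, which are known to rise together with interferon, KB05 gave a lower level of PSMB9 and a higher level of PSMB10, and PSMB8 was not called. Each of the 2 calls was lost with a single DMSO library left out, replicate 3 for PSMB9 and replicate 1 for PSMB10. The 95% interval of PSMB8 with KB05 (-0.579 to 0.245) contains the change of PSMB9 but not that of PSMB10.

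As a share of all catalytic subunits, each taken per kilobase, PSMB8, PSMB9 and PSMB10 made up 5.89% ± 0.552 (SD, n = 3) in DMSO, 5.88% ± 0.208 with KB02 and 5.68% ± 0.216 with KB05. The libraries of the 3 groups overlapped. Leukocytes hold the immunoproteasome constitutively, and their 8 marker genes summed to 18.5 to 26.2 CPM in DMSO, 20.3 to 27.6 CPM with KB02 and 19.02 to 19.9 CPM with KB05. Of these, 7 passed the filter and MS4A1 was at or near 0. With KB02, 2 of the 7 were called higher and 1 lower, and with KB05 0 were called. Of all genes tested, 46.1% were called with KB02 and 39.8% with KB05. CD14 rose with KB02 (0.541 ± 0.249 CPM in DMSO, 8.80 ± 2.62 CPM with KB02), and LYZ went from 1.23 ± 0.158 to 2.23 ± 0.259 CPM. CD68 fell (2.89 ± 0.385 to 1.03 ± 0.179 CPM). PTPRC was at 14.2 CPM in DMSO and 9.67 CPM with KB02, and its libraries in the 2 groups overlapped. The part of these markers in the result for PSMB9 was not tested. In bulk RNA, a change in the number of cells of a type cannot be told apart from a change of RNA per cell.

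The activators divided with KB02. PSME1 and PSME2, which encode the alpha and beta chains of the interferon-inducible PA28 cap, both fell, and PSME4 (PA200) and PSMF1 (the inhibitor PI31) both rose. Of the 5 genes in the group 40.0% were lower and 40.0% higher, against 23.3% and 22.8% of all genes tested. PSME1 was at 125, 138 and 149.5 CPM in DMSO, 106, 117 and 108.5 CPM with KB02 and 130.0, 144 and 135 CPM with KB05. PSME2 was at 125, 139.7 and 149 CPM in DMSO, 109, 114 and 121 CPM with KB02 and 144, 146 and 147 CPM with KB05. In both genes the KB02 libraries lay below all DMSO and KB05 libraries. The falls were 1.24-fold for PSME1 (log2 change -0.32 ± 0.073, adjusted p = 0.00066) and 1.20-fold for PSME2 (-0.27 ± 0.071, adjusted p = 0.00271). Under library-size scaling they shrank to -0.18 (adjusted p = 0.039) and -0.13 (adjusted p = 0.118), and PSME2 also lost its call without KB02 replicate 1 (-0.18, adjusted p = 0.0724).

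PSME4 was at 35.1, 34.0 and 33.2 CPM in DMSO, 41.5, 47.1 and 43.2 CPM with KB02 and 31.2, 33.9 and 36.7 CPM with KB05, a 1.29-fold rise with KB02 (log2 change 0.37 ± 0.082, adjusted p = 0.000464). PSMF1 was at 89.3, 83.7 and 88.8 CPM in DMSO, 106, 105 and 102 CPM with KB02 and 98.0, 89.1 and 85.2 CPM with KB05, a 1.19-fold rise with KB02 (0.26 ± 0.070, adjusted p = 0.00307). PSME3, the nuclear PA28 chain, was at 82.7, 86.1 and 86.5 CPM in DMSO, 106, 91.2 and 83.6 CPM with KB02 and 96.2, 102 and 92.1 CPM with KB05, and was not called. With KB05, 0 of the 5 genes were called against DMSO by edgeR and 0 by DESeq2, and PSME3 alone had an unadjusted p below 0.05 (95% interval 0.03 to 0.34). Between the compounds, PSME1 (0.30) and PSME2 (0.35) were higher and PSME4 (-0.37) and PSMF1 (-0.20) lower with KB05. The called share of the 5 genes was thus 0.0% with KB05, against 39.8% of all genes tested. Between the compounds it was 80.0%, against 40%. No test compares these shares. The PSMF1 difference was lost without KB05 replicate 2 or 3 and without the filter, with adjusted p from 0.0513 to 0.145.

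Of 12 listed genes of antigen processing and interferon signalling, 7 were lower with KB02 and 1 higher, 4 were lower with KB05 and 1 higher, and 6 were higher and 0 lower with KB05 than with KB02. The lower shares are 58.3% with KB02 and 33.3% with KB05, against 23.3% and 21.1% of all genes tested, and the higher share is 8.3% with each, against 22.8% and 18.7%. Between the compounds 50% were higher and 0.0% lower, against 21.8% and 18.2% of all genes tested. The median log2 change of the 12 was -0.49 with KB02 and -0.18 with KB05, against medians over all genes of 0.00 in both. TAP1, a chain of the peptide transporter and the neighbour of PSMB9, went from 56.7 ± 3.59 CPM in DMSO to 24.5 ± 1.502 with KB02 and 44.6 ± 2.53 with KB05. B2M, the light chain of MHC class I, went from 394 ± 31.9 CPM to 174 ± 9.04 and 290.4 ± 6.58. IRF1, a transcription factor of interferon-induced genes that can activate PSMB9, was the 1 gene that rose, from 6.22 ± 1.15 CPM to 9.15 ± 0.589 with KB02 and 12.6 ± 1.01 with KB05.

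Promoters are shown for 4 members: PSME2, PSMB10 and PSMG4, which carry the same 10 letters of an interferon-response motif and were called in different directions or not at all, and PSMD12, which had the largest change. Each is the RefSeq window of 250 bases before to 50 after the start (GRCh38.p14), 5′ to 3′ on the gene's strand. Capitals mark matches to the interferon-stimulated response element (GAAA, any 2 bases, GAAA) or to the antioxidant response element TGACNNNGC, which NRF1 and NRF2 are known to bind.
PSME2 (chr14:24146561-24146860, minus strand): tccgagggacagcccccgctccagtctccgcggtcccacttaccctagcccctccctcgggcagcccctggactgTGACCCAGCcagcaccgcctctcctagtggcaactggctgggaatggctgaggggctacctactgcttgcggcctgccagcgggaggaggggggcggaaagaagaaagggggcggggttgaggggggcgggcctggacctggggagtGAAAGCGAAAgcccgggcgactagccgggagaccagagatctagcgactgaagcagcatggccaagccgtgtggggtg
PSMB10 (chr16:67936801-67937100, minus strand): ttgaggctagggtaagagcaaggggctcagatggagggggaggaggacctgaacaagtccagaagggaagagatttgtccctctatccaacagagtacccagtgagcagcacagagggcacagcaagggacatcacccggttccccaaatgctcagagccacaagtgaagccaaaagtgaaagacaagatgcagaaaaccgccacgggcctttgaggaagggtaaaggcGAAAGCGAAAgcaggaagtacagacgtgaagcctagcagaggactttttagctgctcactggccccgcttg
PSMG4 (chr6:3258697-3258996, plus strand): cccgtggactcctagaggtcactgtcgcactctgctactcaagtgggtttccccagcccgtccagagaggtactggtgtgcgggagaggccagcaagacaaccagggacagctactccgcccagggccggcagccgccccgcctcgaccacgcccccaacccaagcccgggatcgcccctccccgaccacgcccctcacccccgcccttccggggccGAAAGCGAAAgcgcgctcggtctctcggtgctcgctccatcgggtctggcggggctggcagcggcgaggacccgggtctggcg
PSMD12 (chr17:67366528-67366827, minus strand): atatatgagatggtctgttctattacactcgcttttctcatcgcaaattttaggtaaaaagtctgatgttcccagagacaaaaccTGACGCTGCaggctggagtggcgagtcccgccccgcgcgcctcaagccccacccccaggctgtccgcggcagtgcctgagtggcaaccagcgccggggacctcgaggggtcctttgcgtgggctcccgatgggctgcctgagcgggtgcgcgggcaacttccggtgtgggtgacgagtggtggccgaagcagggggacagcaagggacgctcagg

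The letters GAAAGCGAAA stand 28 bases before the start in PSME2, 21 before it in PSMB10 and 33 before it in PSMG4. Their reverse complement TTTCGCTTTC is in the windows of PSMB8 and PSME1. With KB02, PSME1, PSME2 and PSMG4 fell, while PSMB8 and PSMB10 were not called. The 95% interval of PSMB8 (-0.53 to 0.28) contains those falls, so its lack of a call does not set it apart. PSME2, PSMB10 and PSMG4 were chosen for printing because their calls differed, so that difference is not a result. With KB05, PSMG4 fell, PSMB10 rose and the other 3 were not called. PSMD12 holds 1 antioxidant response element match, TGACGCTGC, and none of the response element of interferon.

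RefSeq promoter windows were matched for 45 of the 51 members. Searched on both strands, the interferon motif was in 7 of the 45 (15.6%, against 4.4% of 27305 genes with a window) and the antioxidant motif in 15 (33.3%, against 16.1%). The CCAAT box, CCAAT, was in 22 (48.9%, against 39.7%). The heat shock element, searched as GAA, TTC, GAA or TTC, GAA, TTC with 2 free bases between the triplets, was in 0 members and in 0.6% of genes. These letter matches are a description of the windows, and no binding was measured.

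Transcript length ran with the KB02 changes across members. Spearman's rho between the log2 change and the median coding transcript length was 0.57 for KB02 (n = 49 members), 0.04 for KB05 and -0.59 for KB05 against KB02. Over all 14292 protein-coding genes with a length the values were 0.02, -0.20 and -0.22. Short-transcript members such as PSMB9, PSMA6, PSMD10 and PSMG4 had the largest falls with KB02, and long ones such as PSME4, PSMB2 and PSMD11 were among the rises. PSMD7, with a short transcript and a rise, went against that order. Within the 14 core genes rho was 0.53 for KB02, and within the 17 genes of the 19S particle it was -0.03, where core transcripts have a median length of 964 bases and 19S transcripts of 1590. With the union of exons as length, rho over all members was 0.48 for KB02. The points share the same libraries and the same estimated counts, and the part of length in the counts of the core and the 19S particle was not tested.

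**Figure D4:**
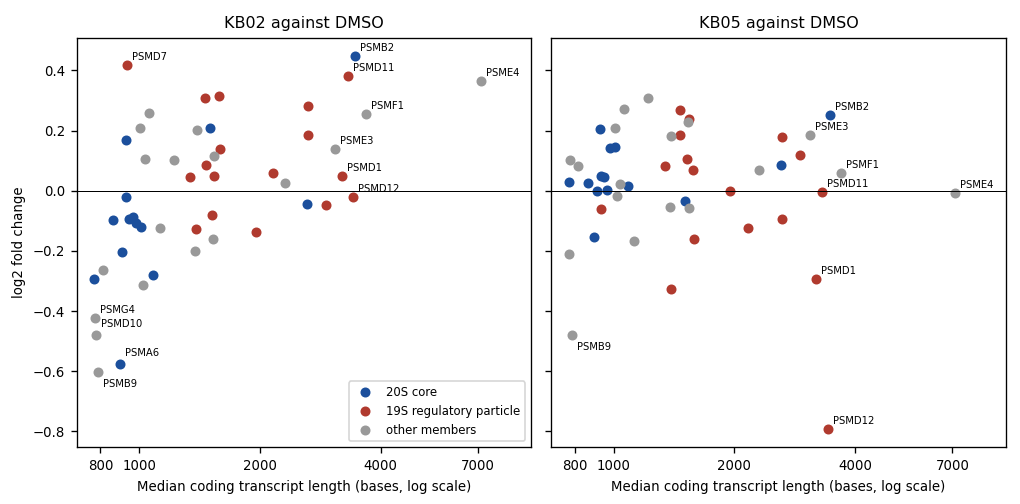
Log2 fold change of each of the 49 members against the median length of its coding transcripts (log axis) for KB02 and KB05 against DMSO, coloured by 20S core, 19S particle and other members. With KB02 the short transcripts reach down to -0.60 (PSMB9) and the long ones lie mostly above 0, and with KB05 PSMD12 stands alone at -0.79.

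Other genes of the pathway, outside the symbol rule, included larger changes than any member's. Of 39 listed genes 38 were tested: 14 were higher and 6 lower with KB02 (median log2 change 0.06), 13 higher and 10 lower with KB05 (0.08), and 9 higher and 11 lower with KB05 than with KB02 (-0.02). The called shares are 52.6% with KB02, near the 46.1% of all genes tested, 60.5% with KB05, against 39.8%, and 52.6% between the compounds, against 40%. UBB, which encodes a chain of ubiquitin repeats, rose by 0.61 with KB02 and by 1.11 with KB05 on the log2 scale. ZFAND2A, a stress-induced 19S-binding protein, rose by 1.86 in both comparisons with DMSO, with a difference between the compounds of 0.00 ± 0.194. MAFF, a small MAF partner of NRF1 and NRF2, rose by 1.59 with KB02 and 1.01 with KB05.

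The transcription factor NFE2L1 itself fell, from 174 ± 8.04 CPM in DMSO to 90.3 ± 2.68 with KB02 (log2 change -0.95 ± 0.070, adjusted p = 1.23e-12) and 128 ± 9.28 with KB05 (-0.44 ± 0.070, adjusted p = 6.56e-06). SYVN1 and SEL1L, which form the ubiquitin ligase of the endoplasmic reticulum, fell as well, SYVN1 by 0.98 and 0.67 and SEL1L by 0.35 and 0.45 on the log2 scale. NFE2L2 (NRF2) rose by 0.29 with KB02 and fell by 0.27 with KB05, a difference of -0.55 ± 0.097 between the compounds (adjusted p = 2.73e-05). RPS27A, a ubiquitin and ribosomal protein fusion, fell by 0.41 with KB02. In the direct comparison, RAD23B, a shuttle of ubiquitinated proteins, was higher with KB05 (0.39), and FAF2, an adaptor of the VCP segregase, was lower (-0.67).

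Of the 19S-bound genes named outside the PSM scheme, ADRM1, the ubiquitin receptor RPN13, rose from 200.4 ± 22.5 CPM to 305 ± 14.0 with KB02 (log2 change 0.61 ± 0.074, adjusted p = 3.91e-08) and 263 ± 6.43 with KB05 (0.39 ± 0.074, adjusted p = 8.59e-05). That is above the largest rise of any member tested. TXNL1, a thioredoxin bound to the 19S particle, rose more, from 47.3 ± 1.36 CPM to 83.9 ± 4.11 with KB02 (0.83 ± 0.075, adjusted p = 9.12e-11) and 72.0 ± 5.82 with KB05 (0.61 ± 0.076, adjusted p = 1.45e-07). ECPAS, an adaptor of the proteasome, and UBE3C, a ubiquitin ligase that binds it, were lower with KB05 (-0.36 and -0.40) and not called with KB02. TXNL1, ECPAS and UBE3C were chosen for mention after their values were seen. USP14, a deubiquitinase on the 19S particle, was lower with KB05 (-0.22, adjusted p = 0.0307). UCHL5, the second such deubiquitinase, SEM1, a small lid subunit, and DDI2, the protease that activates NRF1, were not called in any comparison.

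The members that match by name only also moved. PSME3IP1, a binding partner of PSME3, was at 47.0, 45.3 and 50.03 CPM in DMSO, 57.4, 55.1 and 57.6 CPM with KB02 and 51.7, 58.5 and 61.6 CPM with KB05. Neither compound's libraries overlapped DMSO, with log2 changes of 0.26 ± 0.078 (adjusted p = 0.00698) and 0.27 ± 0.078 (adjusted p = 0.00599). The KB05 call was lost in 1 of the 16 alternative settings. PSMC3IP, a recombination factor, rose with KB02 (0.20, adjusted p = 0.0396), a call that was lost in 5 of the 16 alternative settings.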

How the data were processed

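RNA was sequenced from 22Rv1 cells in 9 libraries, 3 each for DMSO, KB02 and KB05, at 3 h. The series' 15 samples at 8 h were not analysed here. The authors deposited 1 table of expected counts (estimated counts of each gene) that is not scaled for depth. Salmon 1.3.0, DESeq2 1.30.1, hg38 and GRCh38.p13 are named in the submitters' processing notes. Salmon splits reads among transcripts by estimate, so values of overlapping genes and of near-identical pseudogenes are uncertain. The sources used here name neither the annotation release nor the use of strand. Of the values in a library 20.3% to 24.3% were not whole, and all were rounded.

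The tests were run in edgeR 4.0.16 (R 4.3.3): filterByExpr with a minimum count of 10 (18379 genes kept), TMM factors, a robust quasi-likelihood fit of the 3 groups over all 9 libraries with no block, and Benjamini-Hochberg adjustment over all genes tested at 0.05. The SE is the log2 fold change divided by the square root of F, and intervals are at 95%. A floor of 3 counts in a library is 0.129 to 0.195 CPM, which covers counting error only. No 2 libraries of a group agreed within sampling noise (chi-square per degree of freedom 4.39 to 10.5). What the labels call biological triplicates may share 1 culture, in which case p-values measure only the spread between these samples. The fit was checked on simulated counts.

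The members, gene lists and motifs were chosen with earlier results of these data known. Values in every library are given for the 4 largest called rises and falls per comparison (mean log2 CPM of at least 1) and for all immunoproteasome and activator genes. From the other pathway genes, the 3 largest called rises and falls and 7 genes fixed by name were taken. Genes named beyond these, such as other called members of a group, were chosen after their values were seen. Gene types, positions and lengths are from GENCODE 29, and promoters from RefSeq. Scaling, filter, tool, block and single libraries were varied, and counts without the 2 name-only members and exon-union lengths were added after seeing the data. One result for a listed gene is not reported here.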

Additional observations from a re-analysis of the deposited data

Results flagged for a closer look

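Non-coding rows whose symbols match the same pattern lie outside the members. Of the 6 tested, 3 rose over DMSO with 1 compound or both, and 2 fell: PSMC1P1, a pseudogene of PSMC1, with KB02 (-0.35 ± 0.104, adjusted p = 0.00579) and PSMA3-AS1, antisense to PSMA3, with KB05 (-0.42 ± 0.107, adjusted p = 0.00204). The rows called were PSMC1P1, PSMD6-AS2 and PSMG3-AS1 with KB02, and PSMA3-AS1, PSMD10P2 and PSMG3-AS1 with KB05. Of all genes tested, 46.1% were called with KB02 and 39.8% with KB05, so these counts do not set the rows apart. PSMG3-AS1, a long non-coding RNA beside PSMG3, was at 7.07 ± 0.374 CPM in DMSO, 11.3 ± 0.799 with KB02 and 10.2 ± 1.29 with KB05. The log2 change was 0.67 ± 0.133 with KB02 (edgeR adjusted p = 0.0001) and 0.52 ± 0.136 with KB05 (adjusted p = 0.00272). Its exons overlap 3.1% of the exon length of PSMG3, which was 0.21 higher with each compound.

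PSMD6-AS2 had 3, 11 and 3 counts in the DMSO libraries, 37, 21 and 44 with KB02 and 9, 7 and 13 with KB05. Its log2 change with KB02 was 2.39 ± 0.498 (adjusted p = 0.000182). PSMD6-AS2 passed the filter on low counts only with its KB02 libraries, where it is high, so its call is not independent of that rise. PSMD10P2, a transcribed pseudogene of PSMD10, had 0, 0 and 1 counts in DMSO, 0, 2 and 0 with KB02 and 11, 12 and 12 with KB05. The fitted log2 change of 4.78 with KB05 (adjusted p = 0.000248) rests on 1 count in DMSO, and its size depends on the prior count of the fit. PSMD10P2 passed the filter through its KB05 libraries alone, so this adjusted p is no independent support for the rise. Both rows are among the rises counted above. The ratio of summed counts per total count, 35 with KB05 against 1 in DMSO, was 37.3, with an exact binomial 95% counting interval of 6.26 to 1513. That interval pools the libraries of each group, so it covers counting error only and not the spread between libraries. It uses the same counts that let PSMD10P2 pass the filter, so it is no independent support for the rise either.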

How the results depend on the processing

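Each comparison was recomputed under 16 alternatives. Of the calls of members, 13 of 24 held in every alternative for KB02 against DMSO, 6 of 15 for KB05 against DMSO and 15 of 28 for KB05 against KB02. No called member changed direction. Of 2352 member values under the alternatives 116 changed sign, none called in either fit and none larger than 0.148. Under library-size scaling KB02 gave 24 members higher and 5 lower, and KB05 against KB02 gave 6 higher. Under RLE and upper-quartile scaling KB05 against KB02 gave 10 higher in each. With single libraries left out, the counts ranged from 10 to 14 higher and 6 to 11 lower for KB02, from 4 to 11 higher and 3 to 8 lower for KB05, and from 7 to 16 higher and 9 to 13 lower between the compounds. Leaving out the 2 name-only members gave 12 higher and 10 lower, 9 and 5, and 16 and 12. The cause of these shifts was not tested. PSMB8 had 73 to 111 counts per library and a DMSO range of 3.87 to 6.75 CPM, and the part of depth in its wide interval was not tested.

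Replicate numbers are shared between the groups, but same-numbered libraries did not deviate together (correlations of -0.041 to 0.081). These correlations cannot show whether same-numbered samples were handled together. With the replicate block, 14 members were higher and 10 lower for KB02, 11 and 5 for KB05, and 16 and 13 between the compounds.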
